A study of Mus musculus with 6 samples.

Results

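Endothelial cells line the vessels and chambers of the heart, and 31 genes that mark these cells or their response to injury and inflammation were followed here in ventricles of sleep fragmented and control mice. The genes were given as a list of symbols, and every probe whose RefSeq accession belongs to a listed gene was taken. This gave 39 probes for 31 genes, out of 39429 distinct probes on the array. Of these, 36 probes and 30 genes passed the filter for signal, beside 25228 probes and 14555 named genes in all. The members fall into 21 identity genes (junction and surface proteins, receptors, secreted proteins and transcription factors) and 10 genes of leukocyte adhesion, vasoactive control and coagulation.

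The mice were females of the inbred strain C57BL/6N, aged 21 weeks. In the sleep fragmented group (3 arrays) sleep had been broken up for 5 weeks, and in the control group (3 arrays) it had not been disturbed. No allele or drug is named for either group, and the titles of the control samples also carry the words for sleep fragmentation before the word Control. Each array held total RNA of the ventricles of 1 sample, labelled with Cy3 alone, and whether each sample was a different mouse is not said, so the p-values reflect the variation among these 6 samples alone, part or all of which could be technical.

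Endothelial cells are held together by cadherin 5 and claudins and are kept alive and in order by VEGF, acting on Kdr, and by angiopoietins, acting on Tek. ETS family and SOX F transcription factors, here Erg, Sox17 and Sox18, maintain this identity. Inflammatory cytokines act through NF-kappaB to place selectins, Icam1 and Vcam1 on the surface, where leukocytes bind. The same cells set vessel tone through nitric oxide and endothelin, and they control clotting through von Willebrand factor, thrombomodulin and the protein C receptor. In the ventricle most of them form capillaries, while veins and the endocardium that lines the chambers are richer in von Willebrand factor.

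ETS factors bind a core of GGAA, and promoters of the members were read to see whether they share it. RefSeq windows (GRCm38.p6) were found for 16 of the 31 members, 20 windows in all. The 250 bases before the transcription start of 4 genes are printed from 5′ to 3′ in the direction of the gene, with GGAA or its reverse complement TTCC in capitals. Eng and Edn1 are shown because their groups did not overlap on the arrays, Emcn because it was highest on the second array of each group, and Sele because it was not well above background anywhere.
Eng, chr2:32646345-32646594, + strand: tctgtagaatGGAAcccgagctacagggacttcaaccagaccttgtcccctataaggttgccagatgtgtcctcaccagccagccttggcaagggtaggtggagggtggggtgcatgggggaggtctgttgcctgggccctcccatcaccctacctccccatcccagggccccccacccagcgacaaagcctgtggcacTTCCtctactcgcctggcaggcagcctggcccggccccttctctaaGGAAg
Edn1, chr13:42301226-42301475, + strand: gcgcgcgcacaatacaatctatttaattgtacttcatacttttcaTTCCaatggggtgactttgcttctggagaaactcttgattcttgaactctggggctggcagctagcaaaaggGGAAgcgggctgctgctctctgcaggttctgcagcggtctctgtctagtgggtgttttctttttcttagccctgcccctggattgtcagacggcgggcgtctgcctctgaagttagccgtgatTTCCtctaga
Emcn, chr3:137340828-137341077, + strand: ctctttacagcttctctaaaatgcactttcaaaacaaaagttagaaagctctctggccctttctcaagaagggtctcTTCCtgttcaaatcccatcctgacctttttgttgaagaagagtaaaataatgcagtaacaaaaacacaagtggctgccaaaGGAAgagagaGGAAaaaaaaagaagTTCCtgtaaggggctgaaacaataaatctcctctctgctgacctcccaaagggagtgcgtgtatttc
Sele, chr1:164047984-164048233, + strand: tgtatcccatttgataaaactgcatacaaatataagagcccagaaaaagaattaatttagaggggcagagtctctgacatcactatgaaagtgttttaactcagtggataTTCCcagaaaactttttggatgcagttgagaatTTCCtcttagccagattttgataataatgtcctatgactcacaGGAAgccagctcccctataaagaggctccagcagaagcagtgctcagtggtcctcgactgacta
Eng, Edn1 and Sele hold the core 3 times and Emcn 4 times. The core lay in 18 of the 20 member windows (90%), against 93.4% of 32851 windows of all genes, so its presence does not set the members apart. The longer ETS letters CCGGAAG were in 0 of the 20 member windows, against 6.91% of all windows. A fixed pattern of the NF-kappaB type was in 0 as well, against 1.41% of all. Other forms of NF-kappaB site were not searched, so this count does not show that the windows lack such sites. The AP-1 type letters TGANTCA were in 3 (15%), those of Sele, Selp and Procr, against 6.75%. All letters were searched on both strands, and a match or its absence describes these windows only.

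Signals are given as multiples of the 75th percentile of all non-control spots of the same array, called the scaled signal. That percentile was 127 on sleep fragmented replicate 1 and 212 to 262 on the other 5 arrays. Between 23341 and 28631 probes per array were well above background. All 3 sleep fragmented arrays carry 1 scan date in their headers and all 3 controls another. Scan date and group therefore cannot be told apart for any difference below. A probe was kept when it was well above background on all arrays of at least 1 group, and the brightest kept probe stands for its gene. The arrays' number limits the precision.

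The endothelial genes did not separate the sleep fragmented hearts from the control hearts. By limma, with p adjusted by Benjamini-Hochberg over the 25228 probes kept, 0 of the 30 measured members passed 0.05 (0% of all kept genes passed). The smallest limma adjusted p was 0.949 among the members and 0.534 over all kept probes. Before adjustment 0 members lay under 0.05 as well, against a background of 2.71% of all kept genes (1.69% higher and 1.02% lower). The median log2 fold change (sleep fragmented minus control) was 0.14 over the members and 0.056 over all kept genes. It was positive for 22 members and negative for 8, and under scaling to the array median for 10 and 20, because that scaling moves the median of all genes to -0.15. A change in RNA per cell and a change in the number of endothelial cells cannot be told apart in such samples.

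Of the 30 fold changes 11 exceeded their own standard error, and 0 had a 95% interval that left out 0. Single genes ranged from -0.37 for Sox18 to 0.61 for Vwf, with a median standard error of 0.22. One gene, Vwf, reached 1.5-fold, as did 3.74% of all kept genes. For Edn1, with a narrow interval, the 95% interval ran from -0.10 to 0.73, and for Vwf, with a wide one, from -0.33 to 1.55. The within-group SD of log2 values had a median of 0.25 over the members in sleep fragmented hearts and of 0.23 in control hearts, close to the 0.24 and 0.23 of all kept genes.

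**Figure D1:**
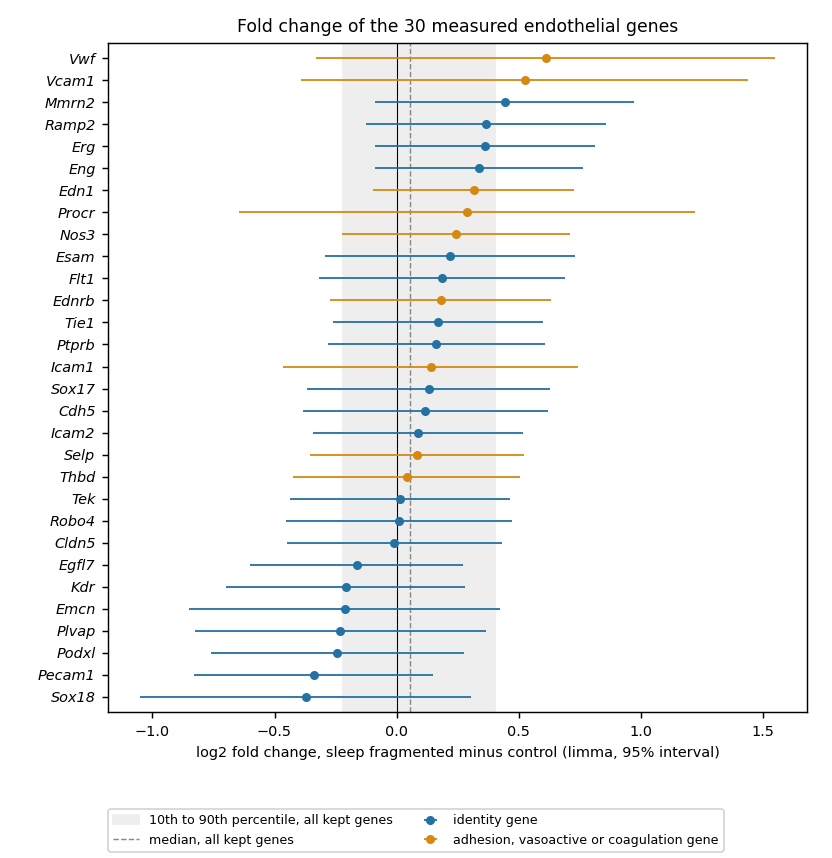
Log2 fold change of the 30 measured endothelial genes (sleep fragmented minus control, limma, points) with 95% intervals (bars), sorted by size. The grey band spans the 10th to 90th percentile of all kept genes (-0.22 to 0.40) and the dashed line their median (0.056). Every interval includes 0.

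The groups did not overlap for 4 members, against 7.39% of all kept genes. Of these members 3 (Eng, Erg and Edn1) were higher in sleep fragmented hearts, against a background of 3.44% of genes, and 1 (Pecam1) was lower, against 3.95%. For any one such gene an exact two-sided permutation test gives p = 0.1, the smallest that 3 arrays against 3 allow. With quantile normalization 2 members did not overlap, and with median scaling also 2.

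**Figure D2:**
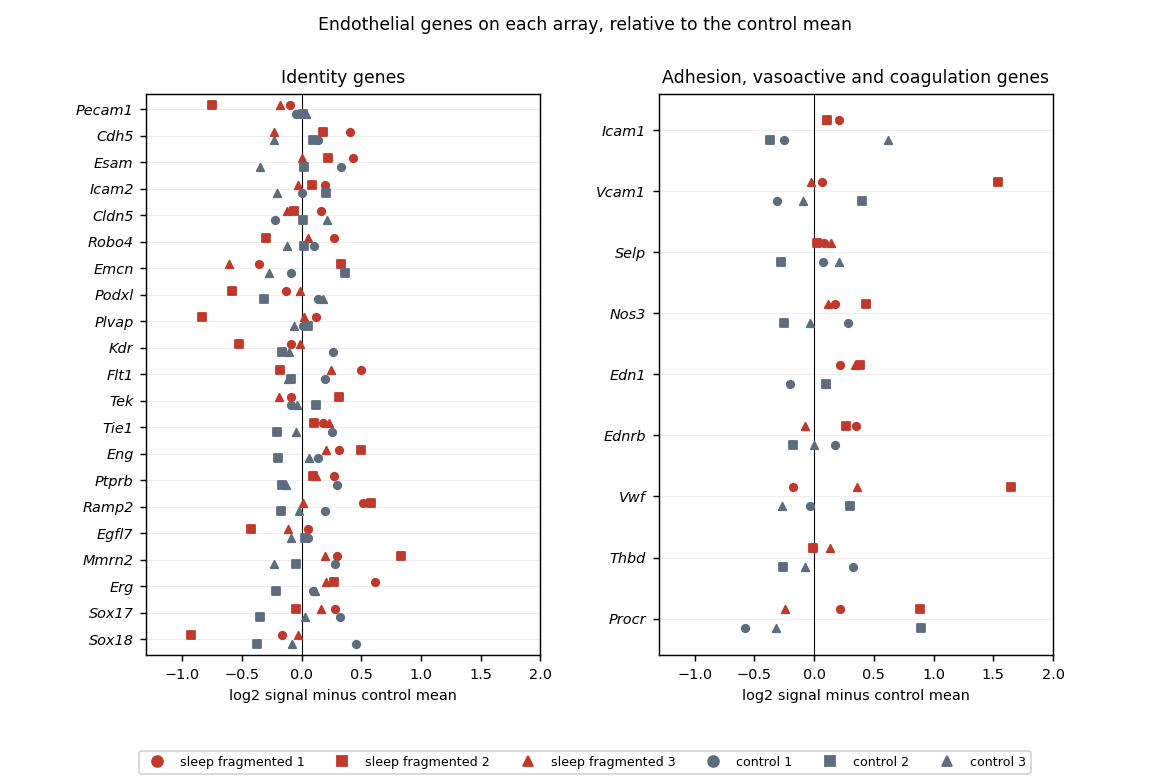
Log2 signal of each measured gene on each array minus its control mean, with sleep fragmented arrays in red above control arrays in grey and the marker shape giving the replicate number. Most genes overlap between the groups; the square of sleep fragmented replicate 2 stands to the right for Vwf, Vcam1 and Mmrn2 and to the left for Pecam1, Plvap and Sox18.

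Junction and surface genes had a median log2 fold change of -0.0093 over 9 measured members, 4 positive and 5 negative. Cdh5, the cadherin of endothelial junctions, had scaled signals of 8.42, 7.19 and 5.43 in sleep fragmented hearts, against 6.98, 6.81 and 5.42 in control hearts. The groups overlapped, and the log2 fold change was 0.12 ± 0.22 (SE, 3 arrays in each group). Cldn5, the tight junction claudin of endothelium, had 1.34, 1.15 and 1.11 in sleep fragmented hearts, against 1.03, 1.21 and 1.39 in control hearts. Its means, 1.20 ± 0.128 and 1.21 ± 0.182 (SD, n = 3 each), differed by less than either SD.

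Pecam1, an adhesion molecule of endothelial contacts that platelets and leukocytes also carry, had scaled signals of 3.55, 2.26 and 3.35 in sleep fragmented hearts, against 3.66, 3.83 and 3.89 in control hearts. All 3 sleep fragmented arrays lay below all controls, and most of the gap lay on replicate 2. The log2 fold change was -0.34 ± 0.22 (SE; limma adjusted p = 0.949), or -0.14 when the second sleep fragmented array was left out. Its junctional neighbour Esam averaged 3.61 ± 0.526 in sleep fragmented hearts and 3.14 ± 0.724 in control hearts. Icam2, which endothelium carries at rest, averaged 7.29 ± 0.567 in sleep fragmented hearts and 6.89 ± 0.990 in control hearts (SD, n = 3 each). For both genes the groups overlapped.

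Robo4, a guidance receptor that steadies the vessel barrier, averaged 7.03 ± 1.35 in sleep fragmented hearts and 6.91 ± 0.556 in control hearts (log2 fold change 0.0095 ± 0.20). The sialomucin Podxl had 0.655, 0.478 and 0.708 in sleep fragmented hearts, against 0.789, 0.575 and 0.811 in control hearts. Within each group replicate 2 was the lowest array, and the log2 fold change of -0.24 ± 0.23 was about as large as its error. Emcn, a sialomucin of capillary and venous endothelium, showed the reverse order of arrays. It had 0.573, 0.924 and 0.482 in sleep fragmented hearts, against 0.690, 0.948 and 0.608 in control hearts, with replicate 2 the highest array of each group. Its log2 fold change was -0.21 ± 0.28.

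Plvap, which forms the diaphragms of endothelial caveolae and fenestrae, was measured by 2 kept probes that disagreed. The brighter one had 49.7, 25.7 and 46.3 in sleep fragmented hearts, against 46.1, 47.4 and 43.8 in control hearts. The dimmer one had 0.486, 1.43 and 0.446 in sleep fragmented hearts, against 0.422, 0.421 and 0.429 in control hearts. Replicate 2 of the sleep fragmented group was thus the lowest of 6 arrays by one probe and the highest by the other. The log2 fold changes were -0.23 ± 0.26 and 0.67 ± 0.40, and averaging the probes gave 0.22, which turns the direction of the gene.

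Receptors of the identity group had a median log2 fold change of 0.17 over 7 measured members, 6 of them positive. Kdr, the main VEGF receptor, had scaled signals of 25.1, 18.5 and 26.4 in sleep fragmented hearts, against 32.0, 23.8 and 24.8 in control hearts (log2 fold change -0.21 ± 0.22). Its dimmer probe gave 0.22 ± 0.24, with the opposite sign. Flt1, which binds VEGF as a decoy as well as a receptor, averaged 12.3 ± 2.81 in sleep fragmented hearts and 10.6 ± 1.32 in control hearts. For both genes the groups overlapped, and no log2 fold change exceeded its standard error (0.19 ± 0.22 for Flt1).

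The angiopoietin receptor Tek averaged 0.638 ± 0.121 in sleep fragmented hearts and 0.627 ± 0.0491 in control hearts, and its partner receptor Tie1 averaged 0.255 ± 0.0114 in sleep fragmented hearts and 0.228 ± 0.0381 in control hearts (SD, n = 3 each). Ptprb, the phosphatase that switches Tek off, averaged 14.2 ± 0.924 in sleep fragmented hearts and 12.8 ± 2.37 in control hearts. Its dimmer probe gave a log2 fold change of 0.29 ± 0.24, beside 0.16 ± 0.20 for the brighter. For all 3 genes of this pathway the groups overlapped.

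Eng, the TGF-beta and BMP co-receptor endoglin, had scaled signals of 0.962, 1.09 and 0.893 in sleep fragmented hearts, against 0.852, 0.676 and 0.812 in control hearts. The groups did not overlap, with the nearest arrays at 0.893 and 0.852, and the log2 fold change was 0.34 ± 0.19 (limma adjusted p = 0.949). Ramp2, which turns the receptor Calcrl into an adrenomedullin receptor, had 7.61, 7.97 and 5.38 in sleep fragmented hearts, against 6.12, 4.73 and 5.25 in control hearts. Here 2 sleep fragmented arrays stood above all controls and replicate 3 lay among them (log2 fold change 0.37 ± 0.22). Adm, its ligand, had 0.733, 0.908 and 0.528 in sleep fragmented hearts, against 0.402, 0.559 and 0.457 in control hearts (0.59 ± 0.24, limma adjusted p = 0.949), and its groups overlapped.

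Of the secreted and matrix genes, Egfl7, a factor that endothelium deposits around itself, averaged 21.0 ± 3.41 in sleep fragmented hearts and 23.3 ± 1.18 in control hearts. Mmrn2, a matrix protein that binds VEGF, had 6.72, 9.71 and 6.28 in sleep fragmented hearts, against 6.63, 5.30 and 4.65 in control hearts. Only replicate 2 and, narrowly, replicate 1 of the sleep fragmented group lay above all controls. The log2 fold change was 0.44 ± 0.23 (limma adjusted p = 0.949). Leaving out the second sleep fragmented array gave 0.25.

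The 3 transcription factor genes did not move together. Erg, the ETS factor that keeps endothelial genes active, had scaled signals of 0.223, 0.175 and 0.167 in sleep fragmented hearts, against 0.156, 0.126 and 0.157 in control hearts. The groups did not overlap, and the log2 fold change was 0.36 ± 0.20 (limma adjusted p = 0.949). Its other probe was above background on 0 arrays of either group. Sox18 had 1.45, 0.852 and 1.59 in sleep fragmented hearts, against 2.23, 1.25 and 1.53 in control hearts. The lowest array of each group was replicate 2, and the log2 fold change was -0.37 ± 0.30 (-0.094 without sleep fragmented replicate 2). Sox17, an arterial SOX F factor, averaged 2.99 ± 0.339 in sleep fragmented hearts and 2.77 ± 0.627 in control hearts, and its probes gave log2 fold changes of 0.13 ± 0.22 and -0.038 ± 0.26.

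Genes of adhesion, vasoactive control and coagulation had a median log2 fold change of 0.24 over 9 measured members, all 9 positive; with median scaling 5 were positive and 4 negative, around a median of 0.035. Over all kept genes 59.4% were positive. Relative to each gene's control mean, the list median stood at 0.18, 0.38 and 0.11 on the sleep fragmented arrays and at -0.032, -0.17 and -0.036 on the control arrays. For identity genes the same medians were 0.20, 0.090 and 0.0040 on sleep fragmented arrays and 0.13, -0.046 and -0.081 on control arrays. Sleep fragmented replicate 2 carried the highest value of the first list, and without it the median over the 9 genes was 0.11, or 0.049 without replicate 2 of both groups, a setting chosen after seeing the data. The difference between the lists was not tested.

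Of the 4 inducible adhesion genes 3 were measured, and 0 of these passed the test. Sele, E-selectin, which appears on endothelium after cytokine stimulation, was not well above background on any of the 6 arrays. Its scaled signals were 0.112, 0.0575 and 0.0845 in sleep fragmented hearts, against 0.0453, 0.0289 and 0.0467 in control hearts. These readings did not overlap, with the sleep fragmented arrays above the controls, but at this signal no fold is given. Selp, P-selectin, which is stored with von Willebrand factor and in platelets, had 0.132, 0.127 and 0.137 in sleep fragmented hearts, against 0.131, 0.103 and 0.144 in control hearts. Icam1, the ligand of leukocyte integrins, had 0.197, 0.184 and 0.183 in sleep fragmented hearts, against 0.144, 0.133 and 0.261 in control hearts. The controls spanned the sleep fragmented values for both genes. Both were kept through the controls, since each was well above background on 2 of 3 sleep fragmented arrays, and their log2 fold changes were 0.082 ± 0.19 (Selp) and 0.14 ± 0.27 (Icam1).

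Vcam1, which binds monocytes and lymphocytes, had scaled signals of 0.791, 2.20 and 0.742 in sleep fragmented hearts, against 0.612, 0.998 and 0.709 in control hearts. A second probe had 0.240, 0.388 and 0.199 in sleep fragmented hearts, against 0.181, 0.187 and 0.202 in control hearts. By both probes sleep fragmented replicate 2 was the highest array, and the brighter probe had control replicate 2 next. The log2 fold change of the brighter probe was 0.52 ± 0.40 and became 0.017 without that array. The second probe gave 0.48 ± 0.26 with all arrays (limma adjusted p = 0.949).

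Vasoactive genes were all positive and none passed. Edn1, endothelin 1, the peptide that constricts vessels, had scaled signals of 0.320, 0.359 and 0.351 in sleep fragmented hearts, against 0.240, 0.296 and 0.295 in control hearts. The groups did not overlap, and the log2 fold change was 0.31 ± 0.18 (limma adjusted p = 0.949). Nos3, the endothelial nitric oxide synthase, had 3.20, 3.84 and 3.07 in sleep fragmented hearts, against 3.46, 2.38 and 2.77 in control hearts. Its groups overlapped through control replicate 1, and its probes gave log2 fold changes of 0.24 ± 0.21 and 0.29 ± 0.20. Ednrb, the endothelin receptor of endothelium, averaged 0.984 ± 0.148 in sleep fragmented hearts and 0.866 ± 0.105 in control hearts (0.18 ± 0.20), and its other probe was well above background on 2 of 3 arrays in each group and was not kept.

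Among coagulation genes, Vwf, von Willebrand factor, which captures platelets at injured vessel walls, had scaled signals of 3.26, 11.6 and 4.75 in sleep fragmented hearts, against 3.61, 4.56 and 3.06 in control hearts. Its lead rested on sleep fragmented replicate 2: the log2 fold change was 0.61 ± 0.41 with all arrays (limma adjusted p = 0.949), 0.092 without that array and 1.00 without sleep fragmented replicate 1. Procr, the endothelial protein C receptor, had 0.338, 0.539 and 0.245 in sleep fragmented hearts, against 0.195, 0.541 and 0.233 in control hearts. Replicate 2 of each group stood at the same height, and the log2 fold change of 0.29 ± 0.41 was -0.013 without sleep fragmented replicate 2 and 0.74 without control replicate 2. Thbd, thrombomodulin, which turns thrombin towards activating protein C, averaged 6.65 ± 0.382 in sleep fragmented hearts and 6.56 ± 1.40 in control hearts.

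**Figure D3:**
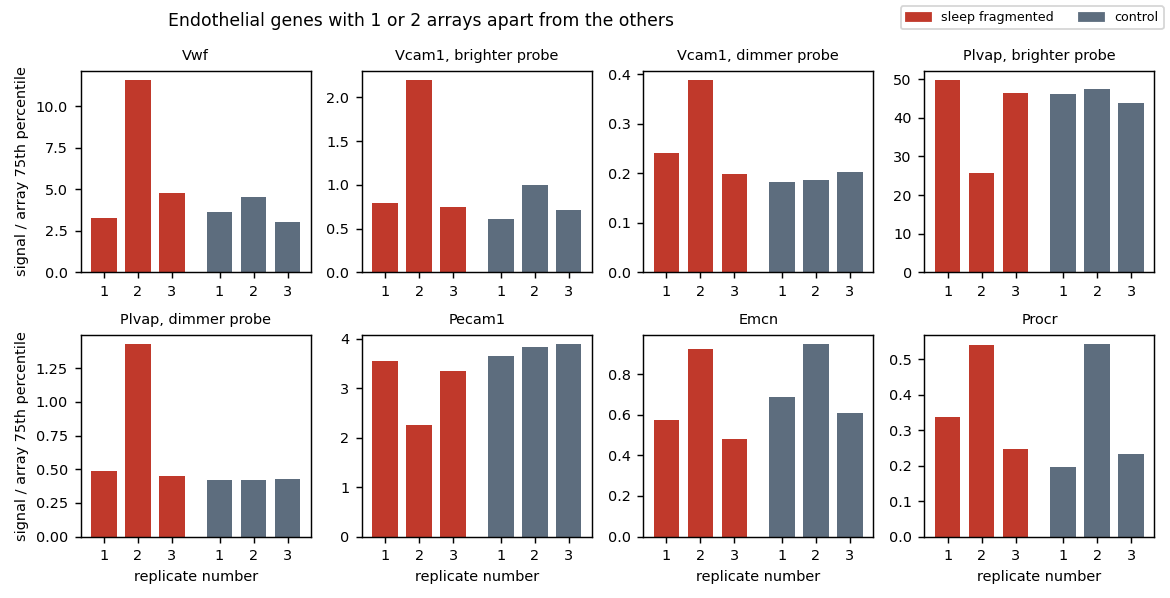
Scaled signal (bars, as a multiple of the array's 75th percentile) of 6 endothelial genes by 8 probes on each array, sleep fragmented replicates in red and control replicates in grey. Sleep fragmented replicate 2 stands alone for Vwf (11.6), Vcam1 (2.20) and both Plvap probes, while Emcn and Procr are high on replicate 2 of both groups.

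The second array of each group also had the highest signal for markers of several other tissues. Over 6 atrial markers, 5 of them kept, the summed scaled signal was 32.1, 339 and 67.2 in sleep fragmented hearts and 15.2, 253 and 59.7 in control hearts. Over 4 endocardial markers, all kept, it was 2.54, 13.1 and 2.70 in sleep fragmented hearts and 2.31, 6.04 and 2.80 in control hearts. The sums of 6 adipocyte markers (3 kept, Lep above background on 0 arrays) were 1.01, 35.9 and 1.96 in sleep fragmented hearts and 0.678, 18.8 and 3.21 in control hearts. Those of 4 mesothelial markers (2 kept) were 0.817, 5.29 and 1.01 in sleep fragmented hearts and 0.755, 2.84 and 0.922 in control hearts. In all 4 lists replicate 2 was the highest array of both groups by this sum, and sleep fragmented replicate 2 the highest of all. The 2 kept mesothelial markers differed among controls, where Upk3b was highest on replicate 2 (0.252) and Wt1 on replicate 1 (0.544).

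Members divided over these arrays. Replicate 2 of both groups held the 2 highest of 6 values for 4 members (Emcn, Tek, Vcam1 and Procr; 13.3%), against 8.68% of all kept genes. It held the 2 lowest for 5 (Podxl, Kdr, Sox17, Sox18 and Selp; 16.7%), against 24.8% of all kept genes. The summed signal of the 21 identity members was 185, 136 and 167 in sleep fragmented hearts, against 182, 163 and 155 in control hearts. It was lowest on sleep fragmented replicate 2, where the brighter Plvap probe was also low, and among controls it was lowest on replicate 3. The median over the identity genes relative to their control means was 0.090 on sleep fragmented replicate 2. The part that atrial, endocardial or adipose tissue has in any member's value was not tested.

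**Figure D4:**
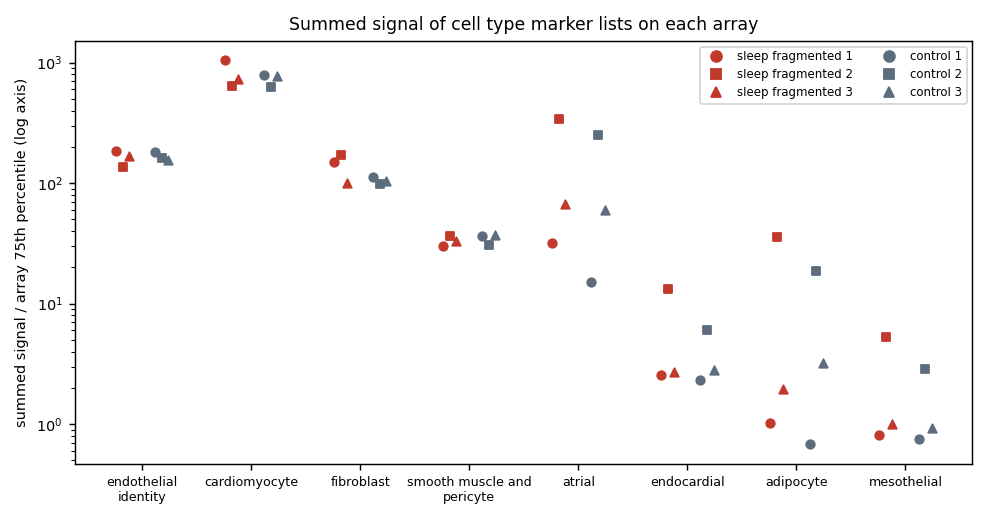
Summed scaled signal of marker lists on each array (log axis), sleep fragmented arrays in red to the left of control arrays in grey, marker shape giving the replicate. Replicate 2 of both groups (squares) is the highest for the atrial, endocardial, adipocyte and mesothelial lists, with atrial sums of 339 and 253, and the endothelial identity sum lies between 136 and 185 on every array.

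Among the remaining marker lists, replicate 2 was again the highest array of both groups for macrophage, lymphatic endothelial and platelet markers. The 8 cardiomyocyte markers, all kept, summed to 638 to 1052 in sleep fragmented hearts and 630 to 785 in control hearts. For 8 fibroblast markers the range was 100.2 to 169.6 in sleep fragmented hearts and 98.8 to 113 in control hearts. For 10 smooth muscle and pericyte markers it was 30.1 to 36.2 in sleep fragmented hearts and 30.9 to 37.0 in control hearts, and for 7 nerve markers 3.03 to 4.76 in sleep fragmented hearts and 2.52 to 3.49 in control hearts. Of cells that share members with endothelium, platelet markers (7, of which Gp5 was above background on 0 arrays) summed to 7.44, 9.84 and 6.09 in sleep fragmented hearts and 5.68, 21.7 and 6.57 in control hearts. Macrophage and monocyte markers summed to 11.6 to 22.002 in sleep fragmented hearts and 12.4 to 16.2 in control hearts, and lymphatic endothelial markers to 3.87 to 9.75 in sleep fragmented hearts and 3.66 to 6.17 in control hearts. Lymphocyte markers summed to 7.82, 5.69 and 6.37 in sleep fragmented hearts and 6.80, 13.5 and 6.73 in control hearts. Neutrophil markers summed to 43.1, 36.8 and 42.1 in sleep fragmented hearts and 45.2, 31.2 and 35.6 in control hearts. Of these, Mpo was above background on 0 arrays. Csf3r made up most of the neutrophil sum and was lowest on control replicate 2 (25.6), as was Elane (0.978). S100a8 (0.902), S100a9 (3.09) and Retnlg (0.545) were highest on that array. Erythroid markers summed to 160.0 to 390.6 in sleep fragmented hearts and 103 to 115 in control hearts. The groups did not overlap for this sum. Of its 5 kept markers 4 lay higher at an unadjusted limma p under 0.05, against 1.69% of all kept genes. Those 4 (Hbb-bs, Hbb-bt, Hba-a1 and Alas2) each had a limma adjusted p of 0.949. The part of these cells in any member's value was not tested.

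The wider set of 135 endothelial genes, of which 120 were kept, was examined in the same way. Its median log2 fold change was 0.052, with 77 positive and 43 negative, 0 passed the adjusted threshold, and before adjustment 2 genes lay under 0.05 on the higher side, against 1.69% of all kept genes, and 3 on the lower side, against 1.02%. Notch1, the receptor of arterial specification, had scaled signals of 83.1, 57.2 and 57.7 in sleep fragmented hearts, against 43.7, 51.0 and 39.2 in control hearts. All sleep fragmented arrays lay above all controls (log2 fold change 0.55 ± 0.22, limma adjusted p = 0.949), and the other higher gene was Adm. Ly6a, a surface protein of capillary endothelium that interferon induces, had 4.37, 3.13 and 3.14 in sleep fragmented hearts, against 4.47, 6.52 and 6.58 in control hearts (-0.72 ± 0.23, limma adjusted p = 0.949). There too the groups did not overlap.

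The other lower genes belonged to the leukocyte adhesion and NF-kappaB response, of which 18 of 22 genes were kept. Nfkb1, a subunit of NF-kappaB, had 0.763, 0.877 and 0.893 in sleep fragmented hearts, against 1.35, 1.05 and 1.05 in control hearts (-0.44 ± 0.19). Ccl2, a chemokine for monocytes, had 1.12, 0.948 and 0.858 in sleep fragmented hearts, against 1.08, 1.57 and 1.502 in control hearts (-0.50 ± 0.21). The groups overlapped for Ccl2 and not for Nfkb1, and both had an adjusted p of 0.949. Over that list the median log2 fold change was 0.035, with 11 genes positive and 7 negative.

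In the remaining roles the gene with the smallest p was Bmp10 among the angiogenic ligands (0.99 ± 0.47), S1pr1, a receptor for sphingosine phosphate that tightens junctions (0.43 ± 0.21), Klf2, a factor induced by shear stress (0.42 ± 0.27), Rasip1 (0.23 ± 0.18) and Plat, the tissue plasminogen activator (0.37 ± 0.21). All had a limma adjusted p of 0.949. Leaving out sleep fragmented replicate 2 gave 0.38 for Bmp10 and 0.21 for Klf2, and with array weights Klf2 stood at -0.16. Bmp10, an atrial product that is also in the atrial list, had 0.752 on sleep fragmented replicate 2, against 0.118 to 0.232 on the other arrays.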

How the data were processed

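The members and gene lists were chosen with earlier results of these data known. Intensity values were deposited by the authors as 1 scanner file per array; per the file headers, Feature Extraction 11.0.1.1 from Agilent produced them, whereas 10.5.1.1 stands in the submitters' processing notes. The deposited flags (well above background, saturated, outlying) are other values, 0 or 1, per the file headers; no spot was saturated. A table of log2 values deposited by the authors, whose columns share 1 distribution, served as an alternative; how it was made is not stated in any source used.

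From the processed intensity, log2 values minus each array's 75th percentile over non-control spots were taken, without outlier spots, and spots of a probe were averaged. Probes were named through unversioned RefSeq accessions (27234 of 39429, 69.1%). The array was designed on another build than the reference table, so no probe positions are given. Groups were compared with limma 3.58.1 in R 4.3.3 (lmFit, eBayes), two-sided, with Benjamini-Hochberg adjustment over 25228 probes; the fit was tested on simulated data. Fold changes are sleep fragmented minus control on the log2 scale, with moderated standard errors. All 31 members are described; of 135 wider endothelial genes, up to 3 per role at an unadjusted p under 0.05 are named, otherwise the 1 with the smallest p. Marker lists of 14 cell types were summed per array. Same-numbered arrays share a barcode number in the headers. Their deviations from the group means correlated with r of 0.063, 0.55 and 0.21, against -0.50 to 0.36 for differently numbered arrays. These values do not settle whether the numbers pair the samples. The main fit was unpaired, and a replicate block was run as an alternative. Alternatives were quantile and median scaling, normexp with an offset of 50 on median signals, the authors' table, other filters, array weights, a replicate block, the mean of a gene's probes and leaving out arrays.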

Additional observations from a re-analysis of the deposited data

How the results depend on the processing

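No member passed the adjusted threshold by limma under any of the 16 alternatives. At an unadjusted p under 0.05 there were 3 members with array weights, where 23.4% of all genes were under it and 109 probes passed the adjusted threshold (Edn1 at 0.50 higher, Sox18 at -0.52 and Emcn at -0.39 lower), 2 with median scaling (Pecam1 and Podxl, lower; 4.88% of genes), 1 with normexp (Pecam1, lower; 3.44%) and 1 without a filter (Sele, higher, and not well above background; 3.35%), and between 0 and 1 with single arrays left out (Vwf at 1.00 without sleep fragmented replicate 1, Ramp2 at 0.54 without sleep fragmented replicate 3 and Procr at 0.74 without control replicate 2, where 1.84% to 9.76% of genes were under it over the 6 such settings); these genes are named after their values were seen. Members whose groups did not overlap numbered 2 with quantile normalization (8.24% of all genes), 2 with median scaling (9.86%), 2 in the authors' table (8.22%), 5 to 10 with single arrays left out (13.7% to 23.9%) and 10 without replicate 2 of both groups (28.5%), since fewer arrays overlap less often. Probes past the adjusted threshold numbered 3 with normexp, 4 with the replicate block and 5 without replicate 2 of both groups. The median log2 fold change of all members was -0.073 with median scaling and -0.044 with array weights, and 0.073 to 0.20 with single arrays left out. For identity genes it was -0.12 and -0.069, and 0.0012 to 0.12. For adhesion, vasoactive and coagulation genes it was 0.035 with median scaling, 0.11 to 0.31 with single arrays left out and 0.049 without replicate 2 of both groups. The causes were not tested, apart from median scaling, which moved the median of all genes from 0.056 to -0.15. The replicate block gave 0 members past the threshold and medians of 0.14, 0.087 and 0.24. With this block 7.09% of all genes were at an unadjusted limma p under 0.05, against 2.71% in the main fit. The barcode number as a block is the same fit. Within the 3 barcode numbers the member median was 0.061, 0.23 and 0.086. Of 30 members, 11 kept their sign under every alternative (Pecam1, Emcn, Podxl, Eng, Egfl7, Mmrn2, Erg, Sox18, Vcam1, Edn1 and Vwf) and 19 changed it under at least 1. Sele and the dim probes of Icam1, Selp and Erg are limited by signal over background. The kept Erg probe, at 0.126 to 0.223, was still well above background on all 3 arrays of each group.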

Other observations

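Single markers differed in how far the second arrays stood apart. Npr3, a natriuretic peptide receptor of endocardium, had scaled signals of 0.986, 6.19 and 1.14 in sleep fragmented hearts, against 0.760, 2.06 and 0.938 in control hearts. Myl4, the atrial light chain, had 0.937, 167 and 20.6 in sleep fragmented hearts, against 0.885, 121 and 15.8 in control hearts. Cytl1 and Foxc1 of the endocardial list and Myl7, Nppa and Stard10 of the atrial list were also highest on replicate 2 of each group. Endocardial Nfatc1 was not, with 0.298, 0.306 and 0.305 in sleep fragmented hearts, against 0.286, 0.279 and 0.322 in control hearts. Bmp10 of the atrial list was lowest of all arrays on control replicate 2 (0.118).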
